A study of Mus musculus with 24 samples.

Results

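Expression of 46 genes of the proteasome was measured by mRNA sequencing in the mouse prefrontal cortex (PFC) and nucleus accumbens (NAc). The members were all genes whose symbol begins with Psm, a letter from a to g and a number, and whose level reached at least 1 FPKM (fragments scaled to transcript length and to library size) in at least 3 of the 24 libraries. Of 48 such symbols among the 48526 genes listed, 46 passed, as did 16072 genes in all. The remaining pair, Psma8 and Psmb11, reached at most 0.292 and 0.0772 FPKM in any library and were not tested.

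The 24 libraries form 8 groups of 3, from 2 regions, 2 lighting schedules and 2 times of day. The animals were 8-week-old male C57BL/6J mice kept on 12 h of light and 12 h of dark for 2 weeks. Control mice (Ctrl) stayed on this schedule, and mice under chronic jet lag (CJL) had lights on and off advanced by 6 h every 2 days. Their tissue was taken on Day 10, and the last advance before that was on Day 8. Tissue was taken 1 h (ZT1) or 13 h (ZT13) after lights on, and each mouse gave a PFC and an NAc, although the labels do not say which libraries share a mouse. No allele differed between groups. Each library is bulk tissue, so its values average over neurons, glia and vessels.

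The proteasome degrades proteins that carry a ubiquitin chain. Its barrel, the 20S core, stacks outer rings of alpha subunits (Psma genes) on inner rings of beta subunits (Psmb genes), and cutting takes place inside at the subunits encoded by Psmb5, Psmb6 and Psmb7. The 19S regulatory particle holds a ring of ATPases (Psmc genes), which unfolds the substrate, and non-ATPase subunits (Psmd genes), which bind ubiquitin and remove it. Interferon can replace the cutting subunits with Psmb8, Psmb9 and Psmb10, giving the immunoproteasome, and other activators (Psme genes), an inhibitor (Psmf1) and assembly chaperones (Psmg genes and some Psmd genes) act on the same core. In neurons the proteasome is known for shaping synapses and for clearing clock proteins.

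By role, the constitutive beta subunits had the highest median level (59.5 FPKM), although single members of other roles lay above some of them. Their means over the 24 libraries ran from 42.4 FPKM (Psmb2) to 82.0 FPKM (Psmb1). The alpha ring ranged from 24.96 FPKM (Psma3) to 56.6 FPKM (Psma7), although all of these subunits are present in equal number in the finished core. The ATPase ring ran from 32.6 FPKM (Psmc6) to 78.3 FPKM (Psmc5), and the 11 non-ATPase subunits from 17.9 FPKM (Psmd11) to 53.5 FPKM (Psmd2). Chaperones lay lower. Those of the 19S particle spanned 7.82 FPKM (Psmd10) to 12.7 FPKM (Psmd5), and those of the 20S core 6.59 FPKM (Psmg4) to 10.99 FPKM (Psmg2). Activators and the inhibitor spanned 9.07 FPKM (Psme4, the PA200 activator) to 38.9 FPKM (Psme3, the PA28 gamma activator of the nucleus). Together the members took 0.346% to 0.475% of all FPKM in a library.

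The immunoproteasome subunits differed widely in level, and Psmb9 and Psmb8 were the least abundant of the 46 members. Mean levels over the 24 libraries were 0.774 FPKM for Psmb9, 1.32 FPKM for Psmb8 and 15.2 FPKM for Psmb10. Expressed against the constitutive subunit that each can replace, Psmb8 stood at 2.49% ± 0.542 of Psmb5 in the PFC and 2.71% ± 0.886 in the NAc (SD, n = 12 libraries each). Psmb9 stood at 1.48% ± 0.555 of Psmb6 in the PFC and 1.16% ± 0.392 in the NAc. For these subunits the libraries of the 2 regions overlapped. Psmb10 stood at 30.1% ± 3.31 of Psmb7 in the PFC and 19.1% ± 2.53 in the NAc, where the highest NAc library (25.7%) lay just above the lowest PFC library (25.2%). The exons of Psmb9 overlap those of Tap1.

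**Figure D1:**
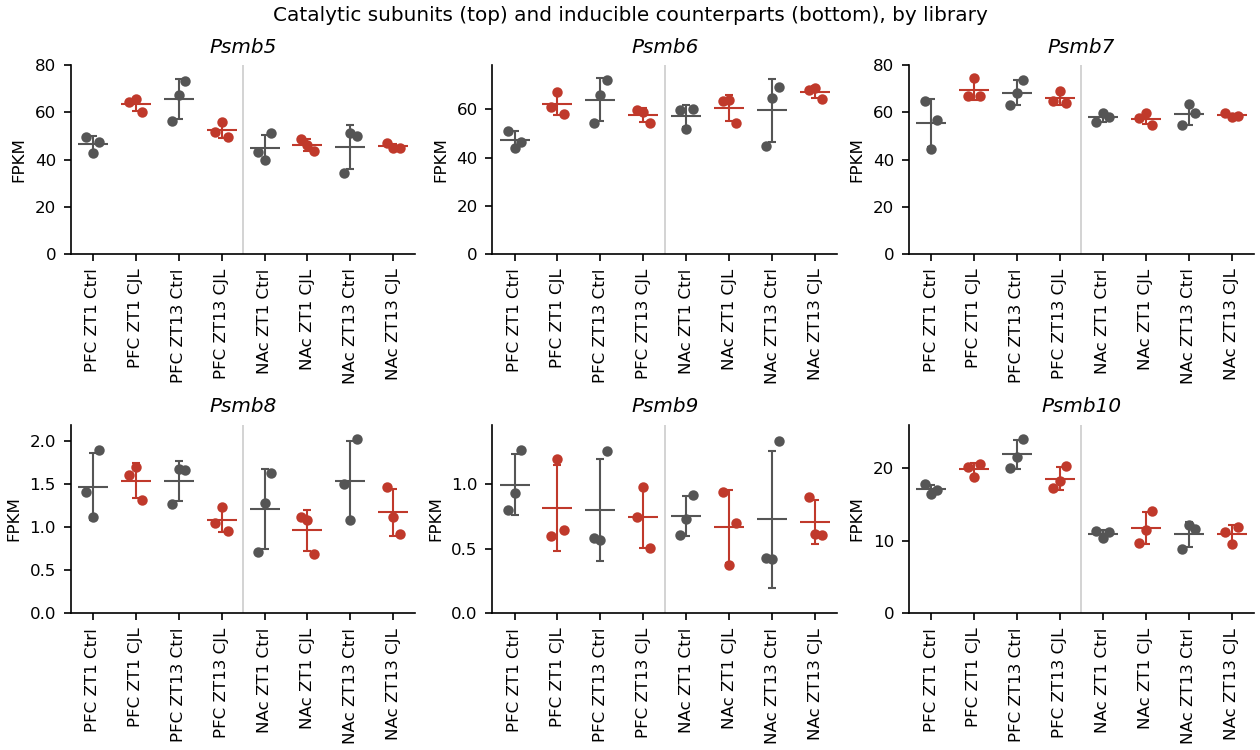
Levels (FPKM, vertical axis) of the cutting subunits Psmb5, Psmb6 and Psmb7 (top) and of the inducible Psmb8, Psmb9 and Psmb10 (bottom) in 8 groups of 3 libraries, grey for Ctrl and red for CJL. Points are libraries, and dashes and bars are the mean ± SD. In the PFC, Psmb5 was lowest at ZT1 in Ctrl mice, and Psmb10 was higher in every PFC library than in any NAc library.

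Promoter windows of Psmb5, Psmb6 and Psmb10, which are among the genes called below, are shown. They run from 250 bases before to 50 bases after the RefSeq start (GRCm38.p6), 5′ to 3′ on the gene's strand. In the windows of Psmb5 and Psmb6 the capitals mark TGACNNNGC, the core of the antioxidant response element, which begins at position -47 from the start of Psmb5 and at -9 from that of Psmb6. In the window of Psmb10 they mark CACGTG, the E-box, beginning at position -116.
Psmb5 (chr14:54617946-54618245, minus strand): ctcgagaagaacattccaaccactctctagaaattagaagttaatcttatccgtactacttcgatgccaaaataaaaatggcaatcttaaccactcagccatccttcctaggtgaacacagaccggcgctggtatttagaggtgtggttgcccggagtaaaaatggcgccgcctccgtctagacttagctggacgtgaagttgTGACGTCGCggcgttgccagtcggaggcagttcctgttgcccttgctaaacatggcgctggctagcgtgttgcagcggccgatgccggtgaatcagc
Psmb6 (chr11:70525107-70525406, plus strand): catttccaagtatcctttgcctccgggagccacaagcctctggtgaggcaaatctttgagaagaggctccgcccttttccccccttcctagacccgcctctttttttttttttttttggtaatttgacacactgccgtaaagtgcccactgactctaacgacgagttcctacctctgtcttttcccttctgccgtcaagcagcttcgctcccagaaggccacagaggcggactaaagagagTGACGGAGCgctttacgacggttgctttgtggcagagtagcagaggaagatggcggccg
Psmb10 (chr8:105938343-105938642, minus strand): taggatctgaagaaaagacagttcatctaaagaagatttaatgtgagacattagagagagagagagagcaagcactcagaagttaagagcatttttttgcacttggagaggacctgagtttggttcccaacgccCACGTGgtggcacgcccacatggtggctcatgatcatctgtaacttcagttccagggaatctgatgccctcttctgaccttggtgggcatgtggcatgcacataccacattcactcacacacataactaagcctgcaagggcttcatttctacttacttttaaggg
Searched on both strands, TGACNNNGC lay in 6 of the 42 windows of the 39 members in the RefSeq table (14.3%) and in 12.4% of all 32851 windows. CACGTG lay in 4 member windows (9.52%, against 7.15% of all) and CCAAT in 13 (31.0%, against 37.4%). The GC box, GGGCGG, lay in 24 member windows (57.1%, against 35.7%). Of the members that rose between times in the PFC of Ctrl mice (below), only Psmb5, Psmb6 and Psmb10 were found with TGACNNNGC or CACGTG. The others had neither, or had no window. These are matches of letters only. No binding was measured.

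In the PFC of Ctrl mice, 14 of the 46 members rose from ZT1 to ZT13 and none fell. Over all 14914 genes tested, 8.8% rose and 3.54% fell in the same comparison (limma, adjusted p under 0.05). The members' median log2 fold change was 0.208, against 0.060 over all genes, and 40 members lay above 0, as did 58.6% of all genes. All 14 had groups that did not overlap, but they were picked by a test on the same values, so this adds no support. The genes that rose came from the alpha ring (Psma5, Psma6, Psma7), the beta ring (Psmb4, Psmb5, Psmb6, Psmb10), the ATPase ring (Psmc1, Psmc2, Psmc5), the non-ATPase subunits (Psmd3, Psmd4) and the chaperones of the core (Psmg1, Psmg3).

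Psmd4 encodes the ubiquitin receptor also known as Rpn10 (chromosome 3, 95032694 to 95042614, minus strand, mm10). It measured 36.5, 36.3 and 35.0 FPKM at ZT1 and 44.6, 48.7 and 51.4 FPKM at ZT13. Every ZT13 library lay above every ZT1 library (log2 fold change 0.42, SE 0.068, adjusted p = 0.0075 by limma). Psmb5, the beta5 subunit with chymotrypsin-like activity (chromosome 14, 54614120 to 54617995, minus strand), measured 49.7, 42.8 and 47.4 FPKM at ZT1 against 56.4, 67.3 and 73.3 FPKM at ZT13. The lowest ZT13 library stood clear of the highest ZT1 library, and the log2 fold change was 0.49 (SE 0.095, adjusted p = 0.0129). Psma6, an alpha subunit, measured 46.2, 36.6 and 46.2 FPKM at ZT1 and 56.7, 58.8 and 61.5 FPKM at ZT13. The second ZT1 library was the lowest of the 6, and the log2 fold change was 0.46 (SE 0.094, adjusted p = 0.014).

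Of the 4 chaperones of the core, Psmg1 and Psmg3 rose, while Psmg4 (0.52, adjusted p = 0.0543) and Psmg2 (0.10, adjusted p = 0.593) did not pass. Psmg1, which pairs with Psmg2 to start the alpha ring, measured 5.43, 6.28 and 4.87 FPKM at ZT1 and 7.16, 8.08 and 8.19 FPKM at ZT13, without overlap (log2 fold change 0.50, SE 0.105, adjusted p = 0.0158). Psmg3, which pairs with Psmg4 in the same task, measured 6.12, 5.05 and 5.25 FPKM and then 7.004, 9.12 and 8.99 FPKM (0.60, SE 0.130, adjusted p = 0.0168). The exons of Psmg3 overlap those of Gm26938. Psmb4, a beta subunit that does not cut, had means of 59.2 ± 6.03 and 80.0 ± 11.1 FPKM (SD, n = 3), and its log2 fold change was 0.43 (adjusted p = 0.0189). Psmc1, an ATPase, had means of 58.8 ± 5.20 and 74.8 ± 3.80 FPKM (0.35, adjusted p = 0.0208). Psmb6, the beta1 subunit with caspase-like activity, measured 51.2, 43.8 and 46.7 FPKM at ZT1 and 54.3, 66.0 and 72.1 FPKM at ZT13, and its first ZT13 library stood only a little above the highest ZT1 library (0.43, SE 0.102, adjusted p = 0.0222).

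By role, median log2 fold changes in this comparison were 0.51 for the 4 core chaperones, 0.32 for the 7 constitutive beta subunits, 0.26 for the 7 alpha subunits, 0.24 for the 6 ATPases and 0.13 for the 11 non-ATPase subunits. Calls numbered 2, 3, 3, 3 and 2 in that order. None of the 3 chaperones of the 19S particle (median 0.095) and none of the 5 activators and the inhibitor (median 0.15) passed the test. Psmb10 was the inducible subunit that passed, at 17.8, 16.5 and 16.995 FPKM at ZT1 and 20.1, 21.6 and 24.04 FPKM at ZT13 (0.35, SE 0.083, adjusted p = 0.0224). Psmb7, the beta2 subunit with trypsin-like activity, did not pass, at 65.0, 44.6 and 56.7 FPKM and then 63.0, 68.3 and 73.9 FPKM (log2 fold change 0.32), and its groups overlapped. Psmb8 and Psmb9 had log2 fold changes of 0.08 and -0.34 with standard errors of 0.20 and 0.35.

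These calls depended on single libraries. Their number was 1 without ZT13 Ctrl library 2, 2 without ZT13 Ctrl library 3, 5 without ZT1 Ctrl library 2 or 3, and 20 without ZT13 Ctrl library 1. For fits with 1 library left out, here and below, the shares of all genes called are not given. Such counts therefore cannot show whether the members changed more than all genes did. With the 2 groups fitted alone 1 member rose, where 1.44% of all genes rose and 0.533% fell, and 4 members rose after a correction for GC content and transcript length, where 3.64% of all genes rose and 3.66% fell. Psmd4 passed under all 21 alternatives, and Psma6, Psmc2, Psmd4 and Psmg3 were called under each of 4 other scalings of the values (median-of-ratios, quantile, to the sum of nuclear genes, and with the GC and length correction).

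**Figure D2:**
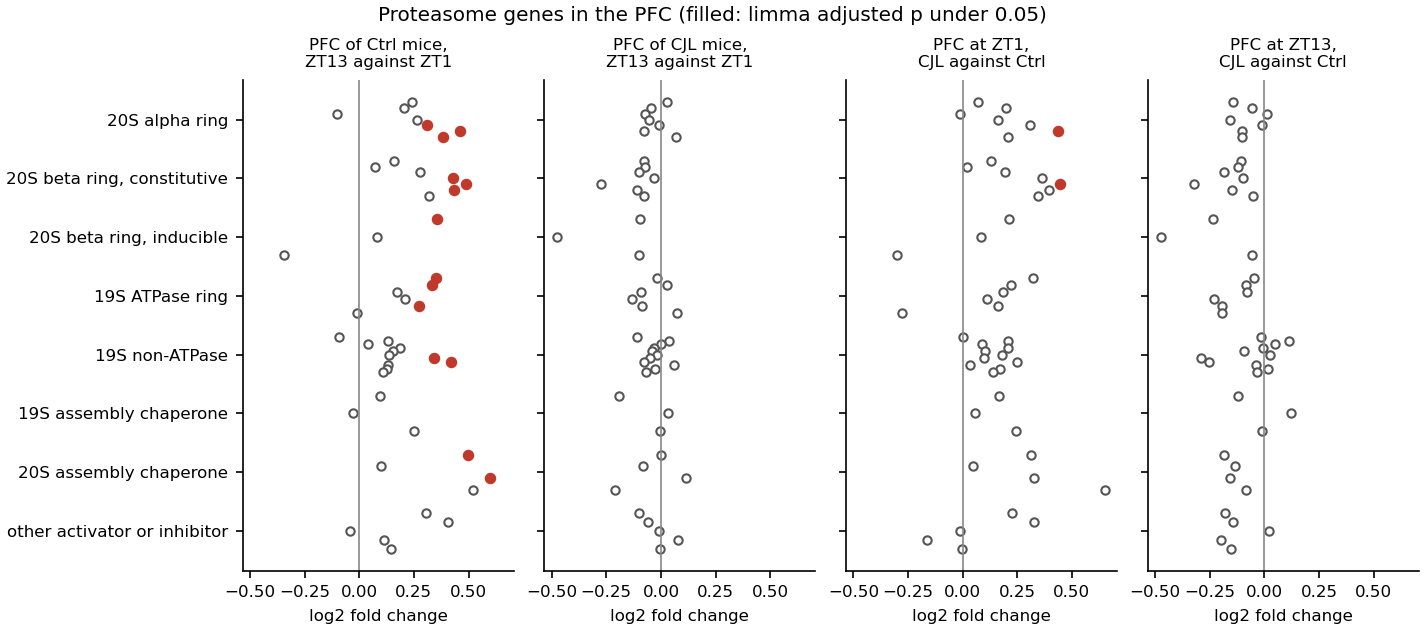
Log2 fold changes (horizontal axes) of the 46 members in the 4 comparisons within the PFC, by role of the gene product. Filled points passed limma's adjusted p of 0.05: 14 in Ctrl mice between times, 2 at ZT1 between schedules, and none in the other panels.

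In the PFC of CJL mice none of the 46 members passed between ZT13 and ZT1. By adjusted p, 5 of all genes rose (0.0335%) and 0 fell (0%). With p unadjusted limma gave 0 higher and 3 lower members, Psmb5, Psmb8 and Psmd10, where 3.92% of all genes were higher and 2.96% lower. The members' median was -0.054 and that of all genes -0.004. Psmb5 measured 64.5, 65.5 and 60.2 FPKM at ZT1 and 51.5, 55.8 and 49.7 FPKM at ZT13. The ZT13 libraries were all lower, the reverse of the order in Ctrl mice, but the difference (-0.28, SE 0.095) had an adjusted p of 0.622. Psmb8 had means of 1.54 ± 0.203 and 1.08 ± 0.141 FPKM (-0.48, adjusted p = 0.684), and Psmd10, a chaperone also known as gankyrin, of 8.02 ± 0.257 and 7.02 ± 0.392 FPKM (-0.19, adjusted p = 0.702).

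At ZT1 in the PFC, jet lag went with higher levels of 2 members, where 1.17% of all genes were higher and 0.416% lower. Psmb5 stood at 49.7, 42.8 and 47.4 FPKM in Ctrl mice and at the CJL values of 64.5, 65.5 and 60.2 FPKM given above (log2 fold change 0.44, SE 0.095, adjusted p = 0.0438 by limma). Psma6 measured 46.2, 36.6 and 46.2 FPKM in Ctrl mice and 57.7, 62.4 and 53.8 FPKM in CJL mice (0.44, SE 0.094, adjusted p = 0.0448). The groups of both genes did not overlap, which likewise adds no support to calls made on the same values. Psmg4, the least abundant core chaperone, had the largest fold, at 3.96, 4.99 and 4.28 FPKM in Ctrl and 7.28, 7.01 and 6.56 FPKM in CJL mice, and just missed the threshold (0.65, SE 0.161, adjusted p = 0.0634). The members' median was 0.174, against 0.042 for all genes, and 40 lay above 0, as did 57.9% of all genes. This comparison and the time comparison in Ctrl mice share the 3 ZT1 Ctrl libraries, so their values are not independent.

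Neither call at ZT1 held under every alternative, although the log2 fold changes over the 21 alternatives stayed at 0.30 to 0.49 for Psmb5 and 0.28 to 0.49 for Psma6. No member passed when any of 9 of the 12 PFC libraries was left out (each CJL library of either time, ZT13 Ctrl library 2, and ZT1 Ctrl libraries 2 and 3). Without ZT13 Ctrl library 1 there were 5, without ZT13 Ctrl library 3 there were 3, and without ZT1 Ctrl library 1 there were 6. No member passed with the groups fitted alone, under median-of-ratios or quantile scaling, or after the GC and length correction.

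At ZT13 in the PFC none of the members passed between CJL and Ctrl mice, where 3 of all genes were higher (0.0201%) and 0 lower (0%). With p unadjusted, limma gave 0 members higher and 7 lower, where 5.73% and 6.92% of all genes were. Psmd4 measured 44.6, 48.7 and 51.4 FPKM in Ctrl mice and 39.1, 42.3 and 40.0 FPKM in CJL mice, without overlap (-0.25, SE 0.068, adjusted p = 0.301). Psmb5 (-0.32, SE 0.095) and the ATPase Psmc4 (-0.23, SE 0.069) had the same adjusted p. The median of the members was -0.104 and that of all genes -0.025. Without ZT13 Ctrl library 1, 1 member was called lower.

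The difference between these effects of jet lag, ZT13 minus ZT1, was tested directly and none of the 46 members passed, where 4 of all genes passed upward (0.0268%) and 8 downward (0.0536%). At an unadjusted p under 0.05 limma gave 23 members below 0 and none above, where 13.1% of all genes lay below 0 and 5.3% above. The members' median was -0.276, against -0.053 for all genes. Closest to the threshold were Psmb5 (-0.76, SE 0.134, adjusted p = 0.0562), Psmd4 (-0.50, SE 0.096, adjusted p = 0.0567) and Psma6 (-0.54, SE 0.133, adjusted p = 0.09). Without ZT13 Ctrl library 1, 10 members passed, all downward, and without ZT1 Ctrl library 1, 1 did.

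The level of the whole set varied by library. The median of the members, as log2 relative to the mean of the region, was -0.04, -0.20 and -0.13 in the 3 PFC libraries of Ctrl mice at ZT1 and -0.02, 0.11 and 0.21 at ZT13. In CJL mice it was 0.03, 0.11 and -0.02 at ZT1 and -0.04, 0.03 and -0.01 at ZT13. The ZT1 Ctrl libraries were the lowest as a group, although their first library overlapped the others. Genes encoded in the mitochondrion took 15.5%, 21.3% and 18.6% of all FPKM in these 3 libraries, where the remaining 9 from the PFC ran from 13.6% to 14.6%. The GC content of the sequencing data, as listed in the paper, was also lower in each of these 3 than in any of those 9. The library with the largest mitochondrial share was that with the lowest proteasome level. When values were rescaled to the FPKM of nuclear genes, 11 members rose between times in Ctrl mice in place of 14, where 5.42% of all genes rose and 5.12% fell. At ZT1, 1 member in place of 2 was higher under jet lag, where 0.798% of all genes were higher and 0.55% lower. Beyond that rescaling, the part of the mitochondrial share in these results was not tested. Nor was that of the GC content of the libraries, beyond the correction by the GC and length of genes.

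**Figure D3:**
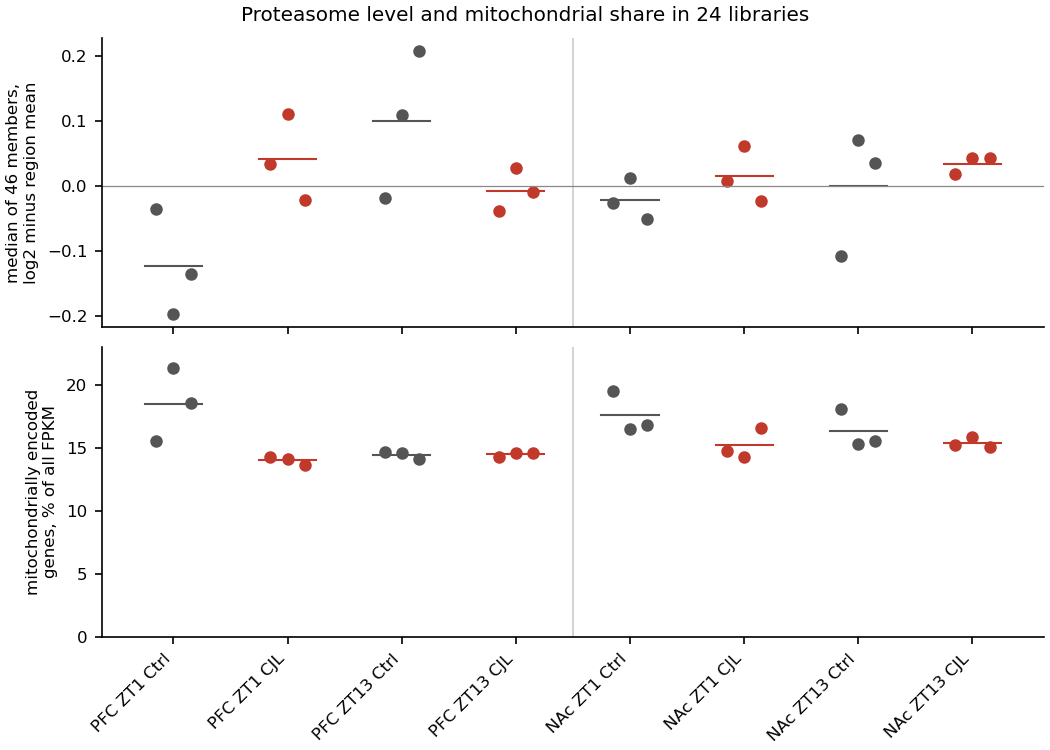
Median of the 46 members in each of 24 libraries (top, log2 relative to the region's mean) and share of FPKM from mitochondrially encoded genes (bottom, percent), by group, with lines at the group means. The PFC libraries of Ctrl mice at ZT1 sit between -0.20 and -0.04 in the top panel and between 15.5% and 21.3% in the bottom one.

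Dissection also varied. Summed markers of excitatory cortical neurons (5 of 5 found) lay at 498 to 739 FPKM in PFC and 47.2 to 223 FPKM in NAc libraries. Those of striatal projection neurons (7 of 7) lay at 106 to 186 and 329 to 858 FPKM, so each region was higher in its own markers. In the NAc of Ctrl mice the cortical markers lay at 48.7 to 98.1 FPKM at ZT1 and 171 to 223 FPKM at ZT13, without overlap. In CJL mice they lay at 47.2 to 185 and 61.2 to 180 FPKM. The part of this difference in the NAc comparisons of time was not tested. Markers of olfactory bulb, choroid plexus, or thalamus and hypothalamus stood more than 1.5 (log2) above the region's median in 8 libraries, 5 of the PFC and 3 of the NAc. Choroid plexus markers (6 of 6) in Ctrl mice reached 21.5 to 612 FPKM in PFC libraries of ZT13 and 1.94 to 11.6 FPKM in those of ZT1. Without these 8 libraries, the members' median log2 fold change between times in Ctrl mice was larger, and that of all genes was 0.083 in place of 0.060. Between schedules at ZT1 no member passed, where 0.069% of all genes were higher and 0.0552% lower, and the members' median was 0.187 in place of 0.174. That fit keeps 1 ZT13 library of the PFC of Ctrl mice, which is assumed to vary like the other groups. It is library 3, whose member median (0.21 relative to the region's mean) was the highest of all libraries. The fit also drops ZT1 Ctrl library 1 (-0.04), the highest of its group. It therefore cannot show whether removing neighbouring tissue changes the rise.

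Shorter members had larger fold changes. Across the 46 genes, Pearson's r between the log2 fold change in the PFC of Ctrl mice and the log2 exonic length was -0.49, and -0.24 across all genes with a length. Genes are not independent replicates and share the libraries, so this is a description. Of the 14 calls, 10 were in the 23 members of shorter exonic length (median fold 0.31) and 4 in the longer ones (median 0.15). For CJL against Ctrl at ZT1 the correlation was -0.56 across the members and -0.12 across all genes. After the GC and length correction the medians of the members were 0.118 and 0.058 in place of 0.208 and 0.174. Whether length itself or another property of these genes sets the relation was not tested.

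**Figure D4:**
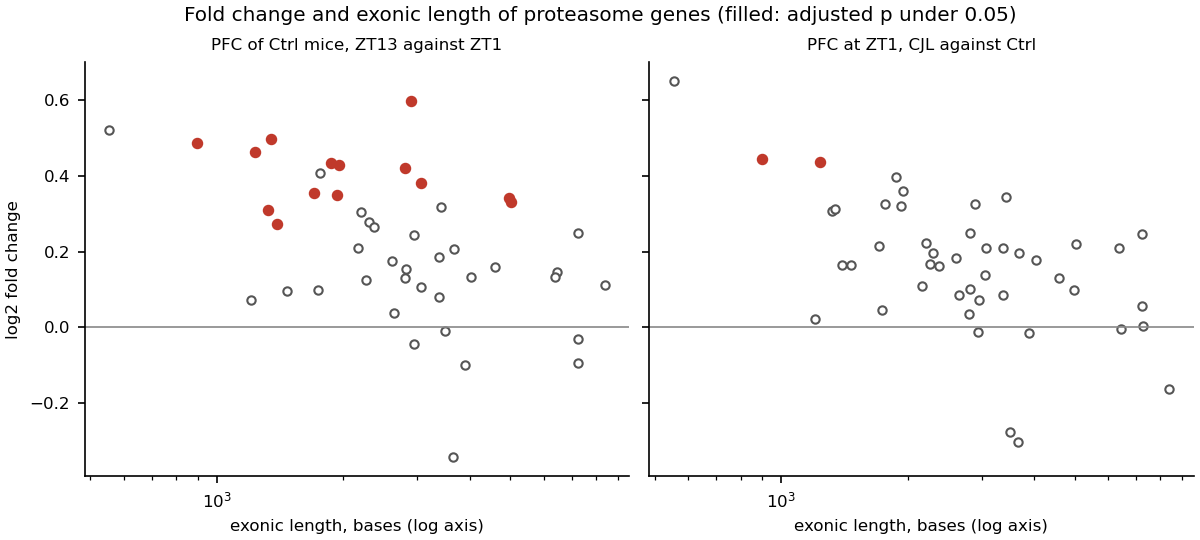
Log2 fold change (vertical axis) against exonic length in bases (horizontal, log axis) for the 46 members, for ZT13 against ZT1 in the PFC of Ctrl mice (left) and CJL against Ctrl in the PFC at ZT1 (right). Filled points passed the adjusted p of 0.05, and 10 of the 14 filled points at left belong to the 23 shorter genes.

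In the NAc none of the 45 members tested (Psmb9 fell under the level minimum there) passed in any comparison of time or lighting, and none of 15573 genes did (0%, limma). Unadjusted p under 0.05 was reached as follows. For ZT13 against ZT1 it was 0 members in Ctrl mice, where 5.21% of all genes were higher and 4.88% lower, and in CJL mice 1 higher and 0 lower, where 2.75% and 2.46% were. For CJL against Ctrl it was 0 members at ZT1, where 5.05% of all genes were higher and 2.66% lower, and at ZT13 1 higher and 1 lower, where 5.31% and 3.01% were. The members' median log2 fold changes were 0.010, 0.024, 0.053 and 0.034 in that order, against -0.013, -0.004, 0.031 and 0.040 for all genes. The difference of the jet-lag effects between times had a median of 0.004, against 0.013 for all genes, with 0 members passing. At unadjusted p 0 were higher and 1 lower, where 2.9% and 3.56% of all genes were. Psmb5 measured 43.2, 39.8 and 51.2 FPKM in Ctrl mice at ZT1 and 34.5, 51.2 and 50.1 FPKM at ZT13. In CJL mice it measured 48.5, 46.2 and 43.7 FPKM and then 46.9, 44.9 and 45.1 FPKM. All 4 groups overlapped.

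The members with the smallest p in the NAc were reported as values. Psmd11, a non-ATPase subunit, had means of 16.7 ± 0.666 and 19.3 ± 0.292 FPKM at ZT1 and ZT13 in Ctrl mice (0.21, SE 0.103, adjusted p = 0.528) and 16.2 ± 2.57 FPKM at ZT13 in CJL mice, 0.26 lower than in Ctrl mice on the log2 scale (adjusted p = 0.570). Psmb3, a beta subunit that does not cut, had means of 43.6 ± 2.44 and 52.0 ± 2.01 FPKM at ZT1 and ZT13 in CJL mice, without overlap (0.25, SE 0.095, adjusted p = 0.938). Psmg2 had means of 10.8 ± 0.899 FPKM in Ctrl and 11.9 ± 0.971 FPKM in CJL mice at ZT1 (0.15, adjusted p = 0.754). The differences next in order of p also missed the threshold. Between times these were Psmc6 (-0.28, adjusted p = 0.599) and Psme1 (-0.17, adjusted p = 0.632) in Ctrl mice and Psmd9 (0.24, adjusted p = 0.949) and Psmd10 (-0.24, adjusted p = 0.955) in CJL mice. Between schedules they were Psmb1 (0.11, adjusted p = 0.774) and Psmf1 (0.11, adjusted p = 0.793) at ZT1 and Psma1 (0.18, adjusted p = 0.594) and Psmc6 (0.33, adjusted p = 0.637) at ZT13. For the difference of the jet-lag effects, Psmd11 (-0.34, SE 0.145, adjusted p = 0.752) had the smallest p, followed by Psmc6 (0.37, adjusted p = 0.82) and Psme4 (0.38, adjusted p = 0.851).

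Whether the time difference in Ctrl mice differed between NAc and PFC was tested directly. None of the 46 members passed, where 0.33% of all genes were higher and 0.23% lower. With p unadjusted, limma gave 17 members with a smaller time difference in the NAc (10.7% of all genes) and 0 with a larger one (6.15%), and the median was -0.204, against -0.071 for all genes. Psmb4 had the smallest p (-0.43, SE 0.140, adjusted p = 0.136), followed by Psme1 (-0.47, SE 0.161, adjusted p = 0.151) and Psmd4 (-0.32, SE 0.112, adjusted p = 0.153). Without PFC ZT13 Ctrl library 1, 2 members passed. The jet-lag effect at ZT1, NAc minus PFC, gave 0 passing members (0% of all genes in either direction). Unadjusted, 6 were lower and 0 higher, where 6.16% and 4.6% of all genes were, and the median was -0.141, against 0.004 for all genes. The smallest p belonged to Psmd7 (-0.25, SE 0.093, adjusted p = 0.361), Psma6 (-0.38, SE 0.141, adjusted p = 0.361) and Psmb7 (-0.36, SE 0.140, adjusted p = 0.383).

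Between the regions, averaged over both times, 11 members were higher and 6 lower in the NAc than in the PFC in Ctrl mice, where 33.5% of all genes were higher and 16.9% lower. In CJL mice 12 were higher and 9 lower, where 37.9% and 18.4% of all genes were. A smaller share of members than of all genes was higher in the NAc in either schedule. The members' medians were 0.069 in Ctrl and 0.041 in CJL mice, and those of all genes 0.111 and 0.136. Under median-of-ratios scaling, which moved the median of all genes to 0.010 in Ctrl and 0.008 in CJL mice, 5 members were higher and 12 lower in Ctrl mice and 6 higher and 14 lower in CJL mice, and the members' medians turned to -0.034 and -0.090. Under that scaling 23.8% of all genes were higher and 23.3% lower in Ctrl mice, and 26.9% and 27% in CJL mice. By the paper's sequencing statistics, every NAc library had a lower share of high-quality bases and of mapped reads than every PFC library. Differences of region and of sequencing quality therefore cannot be told apart here. The fold changes below are against 0 on the deposited scale and can be read against the medians of all genes. On that scale 13 members were called with 1 direction in both schedules (76.5% of the calls in Ctrl and 61.9% in CJL mice), where the shares over all genes were 83.4% and 74.6%.

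Psmb10 had the largest difference. In Ctrl mice it measured 17.8, 16.5 and 16.995 FPKM at ZT1 and 20.1, 21.6 and 24.04 FPKM at ZT13 in the PFC. The NAc held 11.4, 10.4 and 11.1 FPKM and 8.90, 12.1 and 11.5 FPKM. All 6 PFC libraries lay above all 6 NAc libraries. The log2 fold change was -0.82 (SE 0.089, adjusted p = 2.62e-07 by limma) in Ctrl and -0.77 (SE 0.089, adjusted p = 5.27e-07) in CJL mice. It was called under all 32 alternatives. Summed markers of microglia (7 of 7), a cell type that can express the gene, ran from 135 to 173 FPKM in the PFC and 148 to 194 FPKM in the NAc, those of endothelium (5 of 5) from 82.9 to 103 and 49.5 to 76.2 FPKM, and those of interferon response (12 of 12) from 148 to 202 and 102 to 224 FPKM. Like Psmb10, the summed endothelial markers were higher in every PFC library than in any NAc library. Whether they followed it within a region, and their part in the result, was not tested. In bulk tissue, fewer cells of a type and less RNA per cell cannot be told apart.

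Psme1, Psmd5 and Psmd1 were higher in the NAc in both schedules and under each of the 4 scalings. Psme1, a subunit of the PA28 activator, measured 14.5, 12.2 and 12.5 FPKM at ZT1 and 15.6, 15.8 and 17.1 FPKM at ZT13 in the PFC (Ctrl mice), and 24.8, 22.3 and 21.4 FPKM and 16.9, 21.2 and 23.3 FPKM in the NAc. The first NAc library of ZT13 fell within the range of the PFC (log2 fold change 0.56, SE 0.081, adjusted p = 9.46e-06). Psmd5, a chaperone of the 19S base, had means of 10.3 ± 1.19 FPKM in the PFC and 14.2 ± 1.03 FPKM in the NAc of Ctrl mice (0.46, SE 0.070, adjusted p = 1.67e-05), without overlap. Here and in the next paragraph ± is the SD over the libraries of both times together. Psmd1, a large scaffold subunit, had means of 35.2 ± 2.27 and 47.1 ± 2.87 FPKM (0.42, SE 0.048, adjusted p = 6.25e-07), again without overlap. In CJL mice their log2 fold changes were 0.69, 0.49 and 0.43. The exons of Psme1 overlap those of Emc9, and those of Psmd1 overlap Htr2b and Gm21972, so reads may be shared between these genes.

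On the lower side in the NAc, Psmc5, an ATPase, had means of 85.6 ± 10.4 FPKM in the PFC and 71.3 ± 4.06 FPKM in the NAc of Ctrl mice (-0.26, SE 0.052, adjusted p = 0.000406) and was also lower in CJL mice (-0.22). Psmb5 followed, with means of 56.2 ± 12.0 and 44.99 ± 6.97 FPKM in Ctrl mice (-0.31, SE 0.088, adjusted p = 0.00656) and 57.9 ± 6.60 and 45.9 ± 1.72 FPKM in CJL mice (-0.33, adjusted p = 0.00364), the latter without overlap. Psmd7, a non-ATPase subunit, and Psmd12, another, were higher in the NAc of Ctrl mice (0.23 and 0.22, adjusted p = 0.000451 and 0.00305). Psmc6, an ATPase, had means of 24.8 ± 1.80 FPKM in the PFC and 39.8 ± 4.16 FPKM in the NAc of CJL mice (0.68, SE 0.102, adjusted p = 1.27e-05) and of 29.2 ± 2.49 and 36.6 ± 7.57 FPKM in Ctrl mice (0.30, adjusted p = 0.0183). Psma5 (-0.30), Psma1 (0.28) and Psmb2 (0.38) were also called in CJL mice, and Psma5 and Psmb2 were called in the same direction in Ctrl mice too. Of all calls between regions, 10 in Ctrl and 15 in CJL mice were kept under the 4 scalings. Of the genes named here, Psmd12 in either schedule and Psmc6 and Psmb2 in Ctrl mice were not.

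**Figure D5:**
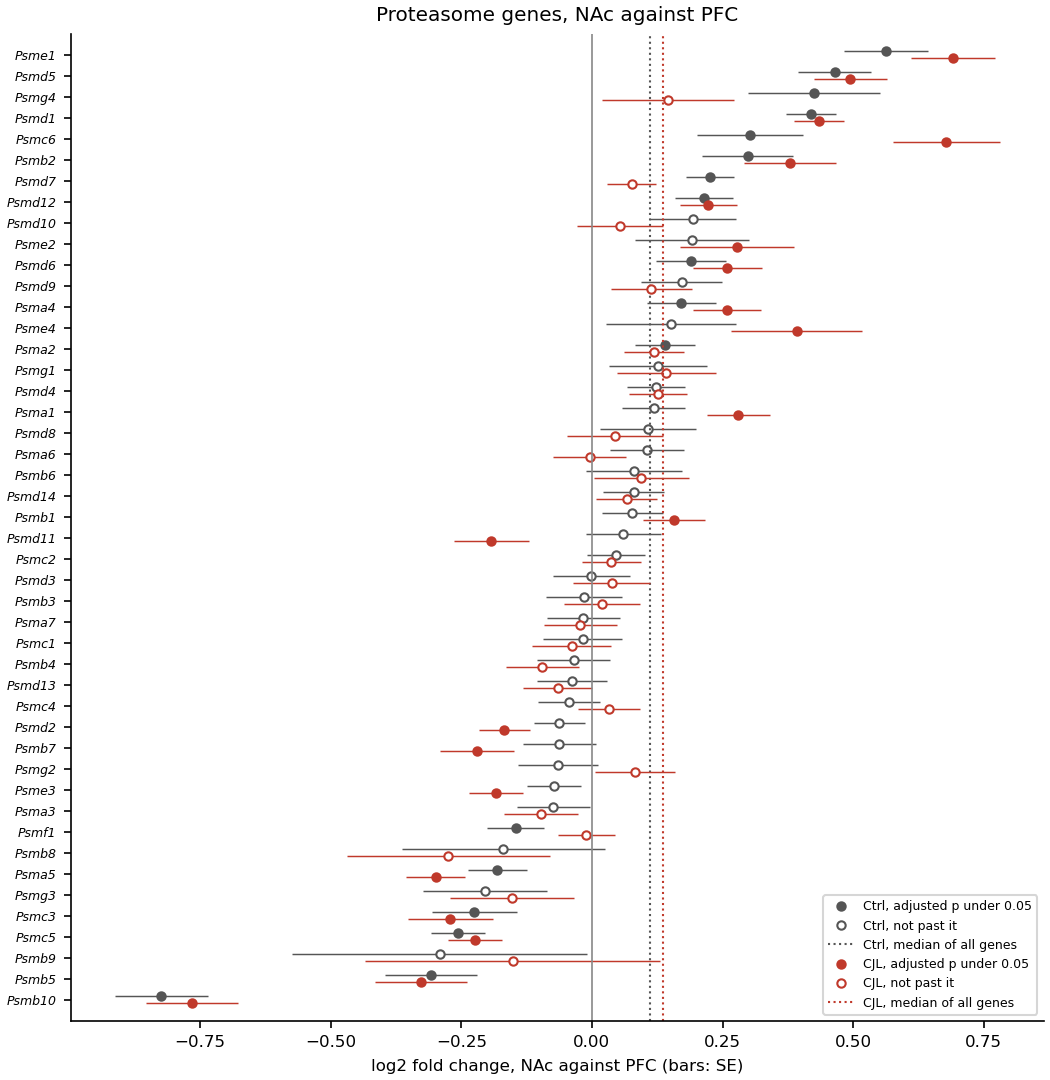
Log2 fold change of the NAc against the PFC (horizontal axis, bars are the SE) for each of the 46 members in Ctrl (grey) and CJL (red) mice, averaged over both times. Filled points passed the adjusted p of 0.05, and dotted lines mark the median of all genes (0.111 and 0.136). Genes are ordered by their value in Ctrl mice, from Psme1 (0.56) at the top to Psmb10 (-0.82) at the bottom.

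Members of the set varied together across libraries to differing degrees. Log2 values were first taken relative to the mean of their own group, so differences between groups do not enter. Against the median of the other members over the 12 PFC libraries, Pearson's r of these deviations had a median of 0.66. Of the members, 31 lay above 0.5 and 2 below 0 (Psme4 at -0.38 and Psme3 at -0.08). Over the 12 NAc libraries the median was 0.48, with 23 above 0.5 and 10 below 0, the lowest being Psme4 (-0.85) and Psmc6 (-0.70). The libraries share depth and composition with the reference median, so no test was made.

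Among 27 other genes of the ubiquitin system tested, 2 rose and 0 fell from ZT1 to ZT13 in the PFC of Ctrl mice, where 8.8% of all genes rose and 3.54% fell. Those that rose included Rps27a, a ubiquitin precursor (0.34, SE 0.095, adjusted p = 0.0388). The median of the 27 was 0.009. At ZT1 in the PFC jet lag went with a higher level of Pomp, the maturation chaperone of the core (0.42, SE 0.082, adjusted p = 0.0316 by limma). In that comparison 1.17% of all genes were higher and 0.416% lower. With the groups fitted alone only 3 of all genes were called higher and 6 lower, and values of Pomp under the alternatives are not given here. Between regions 9 were higher and 3 lower in the NAc of Ctrl mice and 9 higher and 5 lower in CJL mice, where the shares of all genes were the 33.5%, 16.9%, 37.9% and 18.4% given above. In Ctrl mice Uba6, an activating enzyme (0.68), and Nfe2l2, a transcription factor (0.37), were higher, and Pomp (-0.30) and Ubqln4, a shuttle (-0.37), were lower.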

How the data were processed

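RNA was sequenced as mRNA libraries. Per the labels and the study's methods, the authors aligned reads with HISAT2 to mm10 and estimated FPKM per gene with StringTie, and the deposited FPKM values were used as they stand. Whether counting used strand is not given in the sources used here. The files hold no read counts, and the reads per library that the paper lists were not used. The 8 deposited tables of the authors' own DESeq2 comparisons hold fold changes and p-values and were not used. Genes that reached 1 FPKM in 3 or more of a fit's libraries were tested with limma 3.58.1 (R 4.3.3, trended eBayes) on log2(FPKM + 0.1), with 1 mean per group and Benjamini-Hochberg adjustment over all genes tested, and called at adjusted p under 0.05. Fold changes are on that scale, which understates changes of low genes. Time and lighting were fitted within a region (12 libraries) and regions in 1 fit of 24. The fit was tested on simulated data.

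The labels call the libraries of a group separate samples. No libraries were identical. The text names up to 8 members with the smallest p per comparison, the 3 smallest where fewer than 3 passed, the cutting subunits, and the extremes of each role. Other members, such as Psmc5 in CJL mice between regions, were named after their values were seen. Some other genes of the ubiquitin system that the rule would name are not reported here. Members and lists were chosen with earlier results of these data known. Alternatives were median-of-ratios, quantile and nuclear-sum scaling, a GC and length correction (20 bins, 2 rounds), a pseudocount of 1, no filter, groups alone, a replicate block, removal of libraries with high markers of neighbouring tissue, and each library left out. The nuclear-sum scaling, the GC and length correction and the tests of NAc minus PFC were chosen after seeing the data. Spans are those of the files, and exonic length, GC and overlaps come from GENCODE M21.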

Additional observations from a re-analysis of the deposited data

How the results depend on the processing

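In the PFC of Ctrl mice the number of members that rose from ZT1 to ZT13 was 4 after the GC and length correction and 1 with the groups fitted alone. It was 9 with no filter on low FPKM, where 2.23% of all genes rose and 0.778% fell, and 1 to 20 when each library was left out. The members' median log2 fold change was 0.118 with the GC and length correction, 0.125 with quantile normalization and 0.352 without the libraries high in neighbouring-tissue markers. Fits without those libraries keep only library 3 of the PFC of Ctrl mice at ZT13. It had the highest member median of all libraries relative to its region. Medians given below for such fits rest on it where that group enters. For CJL against Ctrl at ZT1 in the PFC the number was 0 after the GC and length correction, with groups alone, with median-of-ratios or quantile scaling, with no filter and without the high-marker libraries, 1 scaled to nuclear genes, and 0 to 6 with each library left out; its median was 0.058 with the GC and length correction. At ZT13 the median was -0.198 without the high-marker libraries and -0.189 to -0.037 with each library left out, when 0 to 1 members were called with each library left out. For the difference of these effects the median was -0.149 with the GC and length correction and -0.397 without the high-marker libraries, and 0 to 10 members were called with each library left out. The members' median between regions in Ctrl and CJL mice was -0.034 and -0.090 with median-of-ratios scaling, and -0.055 and -0.048 once GC and length were corrected. Without the high-marker libraries fewer members, and a smaller share of all genes, were called in Ctrl mice. For the time difference in Ctrl mice, NAc minus PFC, the median was -0.080 with the GC and length correction, -0.381 without the high-marker libraries and -0.286 to -0.159 with each library left out, when 0 to 2 members were called with each library left out. In the NAc the medians with each library left out were -0.042 to 0.066 for time in Ctrl mice, -0.025 to 0.097 for lighting at ZT13 and -0.052 to 0.062 for the difference of the jet-lag effects. Psma2 between regions in Ctrl mice turned to -0.13 with the GC and length correction, and Psme4 in the NAc, for the difference of jet-lag effects, turned to -0.0066 without the high-marker libraries. The causes were not tested.

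With the replicate block, 12 members rose in the PFC of Ctrl mice, 0 differed at ZT1 between schedules, and 17 and 22 differed between regions in Ctrl and CJL mice. Deviations of same-numbered libraries correlated at -0.17 to 0.20 within a region and 0.02 to 0.13 (median 0.038) between regions, where those of other-numbered libraries were -0.25 to 0.21 and -0.15 to 0.11 (median -0.030). Same-numbered pairs between regions were all above 0 but small, and not every one passed 0.1. Whether the numbers pair the libraries was left undecided. The main fits treated the regions as unpaired and so do not account for shared mice.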
